A study of Mus musculus with 9 samples.

Results

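Inhibitory receptors are surface proteins that restrain T cell activation, and most of them appear only after the T cell receptor has been engaged. The transcription factor pair NFAT and AP-1 is known to drive many activation genes in T cells, and NFAT acting without AP-1 has been linked to hyporesponsive and exhausted states in which inhibitory receptors and the factors Tox and Tox2 are high. The genes described here are 10 such genes, chosen by name out of 45321 annotated genes. They and the related lists were chosen with earlier results of these data known. Their counts of calls, set beside the share over all genes, are therefore a description. They are the receptor genes Pdcd1 (PD-1), Ctla4, Lag3, Havcr2 (TIM-3), Tigit and Cd160, the surface glycoprotein gene Cd200, the ectonucleotidase gene Entpd1 (CD39), and Tox with Tox2.

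RNA was sequenced from splenic CD4+ T cells of C57BL/6 mice, purified untouched, meaning that the CD4+ cells themselves were not bound by antibody. The study set a chemical inhibitor of NFAT:AP-1, Compound 10, against its vehicle DMSO, both in cells activated with the phorbol ester PMA (an activator of protein kinase C) and the calcium ionophore ionomycin and in cells without them. All cells received compound or DMSO for 1 h first. The groups were 12.5 µM Compound 10 followed by 10 nM PMA and 1 µM ionomycin for 2 h (Comp10_PI, 3 libraries), DMSO with the same stimulation (DMSO_PI, 2 libraries), 12.5 µM Compound 10 without stimulation (Comp10_US, 2 libraries) and DMSO without stimulation (DMSO_US, 2 libraries). PMA and ionomycin bypass the T cell receptor, so no receptor or ligand was engaged on purpose. Neither the number of animals behind a library nor their age is given in the labels, so the p-values speak for the spread among these libraries and that spread may be technical.

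Libraries held 10669821 to 21852830 estimated counts. Ribosomal RNA genes took 1.79% to 13.9% of them in 8 libraries and 26.5% in library 2 of DMSO_US. The CD4+ label was matched by summed Cd3e, Cd3d, Trac and Cd4 levels of 1334 to 1510 CPM in Comp10_PI, 1134 to 1464 CPM in DMSO_PI, 788 to 898 CPM in Comp10_US and 539 to 668 CPM in DMSO_US. Trac alone was at 984.7 and 717.9 CPM in DMSO_PI and 167.8 and 178.3 CPM in DMSO_US. Cd4 alone was at 88.9 and 77.2 CPM in DMSO_PI and 97.3 and 116.4 CPM in DMSO_US. Markers of natural killer cells, which can also express Cd160 and Tigit, summed to 17.3 to 24.4 CPM in Comp10_PI, 15.7 to 18.6 CPM in DMSO_PI, 13.5 to 14.5 CPM in Comp10_US and 5.94 to 9.15 CPM in DMSO_US. In DMSO_PI most of this natural killer sum was Eomes, at 14.3 and 10.3 CPM against 8.57, 3.19 and 5.67 CPM in Comp10_PI. Gzma went the other way, at 2.19 and 2.34 CPM in DMSO_PI and 7.29, 5.86 and 6.28 CPM in Comp10_PI. Similar sums therefore do not mean similar levels of each marker. CPM is the count relative to the library's total after scaling between libraries. In bulk RNA of this kind, fewer cells of a type and less RNA per cell cannot be told apart.

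All 10 genes passed the filter on low counts, Havcr2 through its stimulated libraries alone (0 to 4 counts in each unstimulated library). Its calls with stimulation are part of the counts given here, but they are no support, since the filter kept it where it is high. A gene was called changed at an adjusted p under 0.05 from edgeR's quasi-likelihood test, adjusted by the Benjamini-Hochberg method over 14011 genes tested. Compound 10 in stimulated cells gave calls for 3 of the 10 genes, Cd160, Cd200 and Tigit, all lower, against 23.1% of all genes called, 11.7% higher and 11.4% lower. In unstimulated cells it gave calls for 2 genes, Tigit and Pdcd1, both lower, against 7.36% of all genes called, 2.91% lower and 4.45% higher. Stimulation in vehicle gave calls for 5 genes, all higher (Ctla4, Cd160, Cd200 and Tox, and Havcr2 with the limit above). Over all genes 28.1% were called, 14.4% higher and 13.8% lower. Stimulation under compound 10 gave calls for 5 genes, also all higher (Pdcd1, Ctla4, Cd160 and Cd200, and Havcr2 with the same limit). Over all genes 21.8% were called and 11.0% called higher. The compound's effect differed between the states for 1 gene, Cd160, against 1.03% of all genes called, 0.607% lower and 0.421% higher. These comparisons share libraries, the stimulated vehicle libraries being on the vehicle side of the first and the stimulated side of the third, so their values are given side by side and not correlated.

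**Figure D1:**
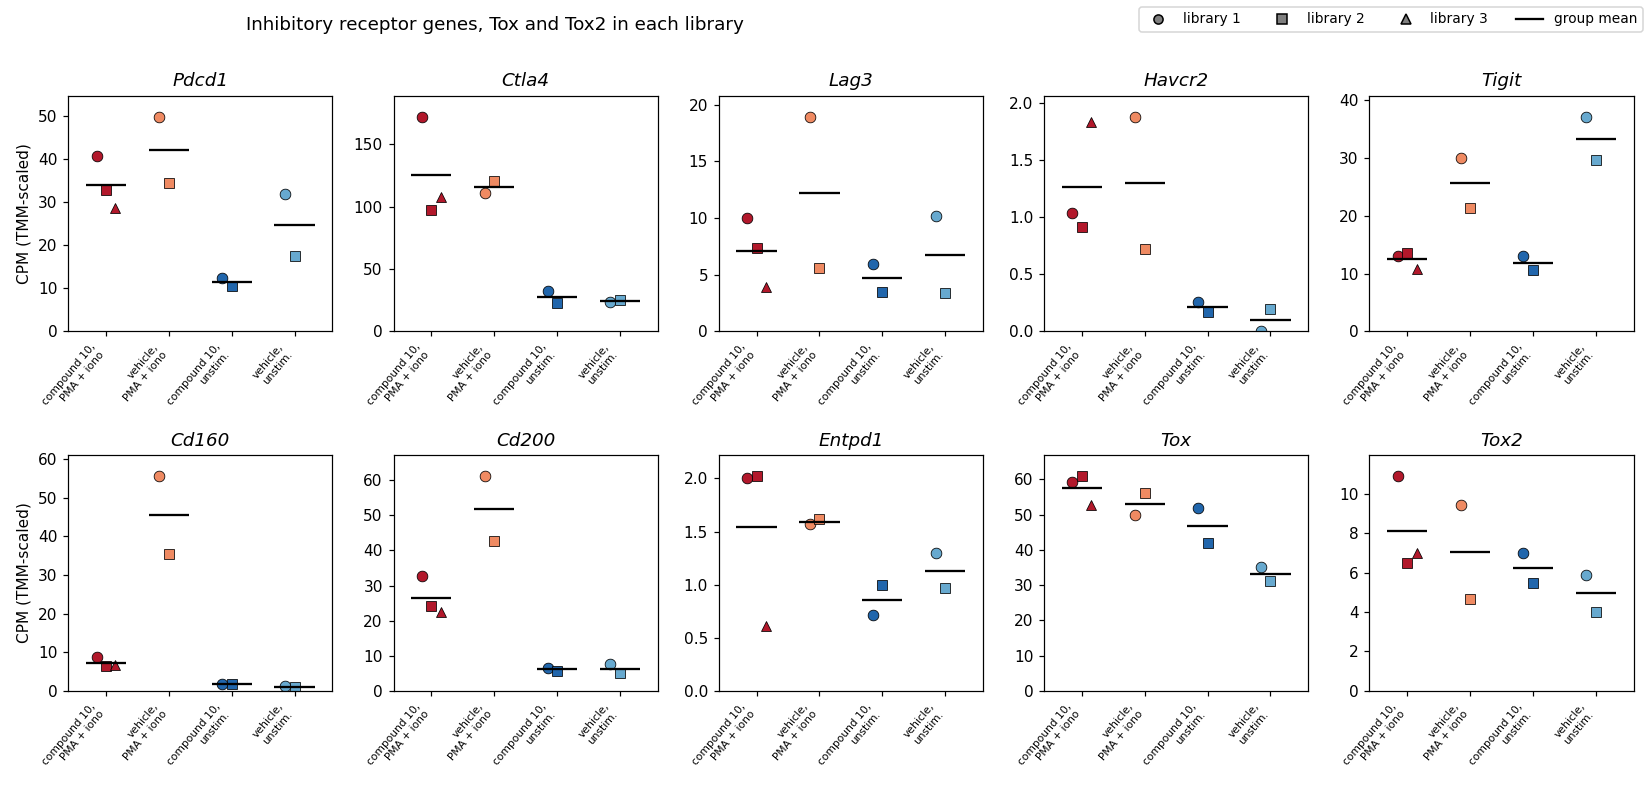
Scaled CPM (y axes, starting at 0) of the 10 genes in each of 9 libraries, by group (x axes), with a marker for each library number and a bar for the group mean. Cd160 lies between 6.38 and 8.65 CPM in stimulated compound 10 libraries, against 35.3 and 55.5 CPM in stimulated vehicle libraries.

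The promoter sequences of the 3 genes called for compound 10 in stimulated cells are shown because the compound is directed at NFAT:AP-1, whose binding sites pair the NFAT core GGAAA, which reads TTTCC on the opposite strand, with an AP-1 motif such as TGANTCA. They come from RefSeq on GRCm38.p6, run 250 bases before to 50 after an annotated start, and are written 5′ to 3′ on the strand of the gene, with NFAT cores in capitals. Cd160 has windows at a pair of starts, at chr3:96829302-96829601 (start 1) and chr3:96814472-96814771 (start 2), Cd200 at chr16:45409004-45409303 and Tigit at chr16:43664135-43664434, all on the minus strand. Start 2 of Cd160 is the start of transcript Cd160-201, which took 94.3% of the gene's counts over all libraries.
Cd160 start 1: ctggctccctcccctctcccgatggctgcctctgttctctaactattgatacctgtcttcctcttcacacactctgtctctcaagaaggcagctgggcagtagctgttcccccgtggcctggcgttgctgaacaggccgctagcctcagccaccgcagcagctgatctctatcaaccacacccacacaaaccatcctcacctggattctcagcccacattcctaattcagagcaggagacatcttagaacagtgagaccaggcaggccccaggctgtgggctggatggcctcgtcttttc
Cd160 start 2: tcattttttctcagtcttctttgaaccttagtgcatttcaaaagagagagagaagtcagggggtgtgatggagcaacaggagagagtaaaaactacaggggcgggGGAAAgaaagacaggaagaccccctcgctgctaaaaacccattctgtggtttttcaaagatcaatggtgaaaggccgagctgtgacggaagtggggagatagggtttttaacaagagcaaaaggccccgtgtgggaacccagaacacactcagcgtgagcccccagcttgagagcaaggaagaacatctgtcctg
Cd200: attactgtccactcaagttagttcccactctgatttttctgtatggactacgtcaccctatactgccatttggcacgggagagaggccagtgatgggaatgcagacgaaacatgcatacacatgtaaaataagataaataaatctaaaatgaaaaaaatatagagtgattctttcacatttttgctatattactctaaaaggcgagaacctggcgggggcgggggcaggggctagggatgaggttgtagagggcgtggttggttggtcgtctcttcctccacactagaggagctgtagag
Tigit: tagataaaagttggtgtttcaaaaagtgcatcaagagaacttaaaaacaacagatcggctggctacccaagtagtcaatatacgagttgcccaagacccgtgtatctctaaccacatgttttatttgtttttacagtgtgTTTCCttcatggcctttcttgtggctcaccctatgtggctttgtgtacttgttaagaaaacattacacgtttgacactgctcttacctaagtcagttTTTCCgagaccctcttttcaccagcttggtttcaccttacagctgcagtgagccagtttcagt
Start 2 of Cd160 held 1 NFAT core at positions -145 to -141 from the start, Tigit held 2, at -110 to -106 and at -13 to -9, and the windows of Cd200 and of Cd160 start 1 held 0. None of these 4 windows held TGANTCA. Of the 10 genes, 8 had a window, with 14 windows in all. Pdcd1 held 2 adjacent NFAT cores, at -28 to -24 and -23 to -19, and Ctla4 held 1. Havcr2 held the 1 AP-1 match among the 14 windows. No window of these genes held an NFAT core and an AP-1 motif within 12 bases of each other. Among 32851 RefSeq windows, 61.3% held at least 1 NFAT core, 26.7% held at least 2, 7.81% held TGANTCA and 0.761% held such a pair. A match to a motif is a description of the letters and not a binding site.

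**Figure D2:**
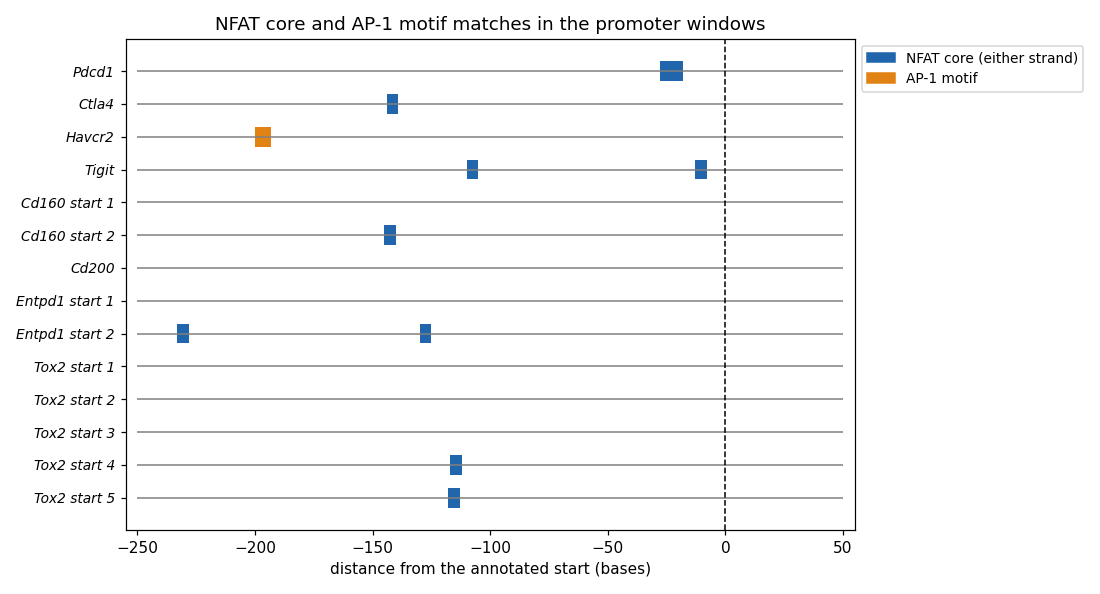
Matches to the NFAT core on either strand and to the AP-1 motif in the 14 promoter windows of 8 genes, by distance in bases from the annotated start (x axis, dashed line at the start). Matches are few and scattered, with the 2 adjacent cores of Pdcd1 just upstream of its start.

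Cd160 had the largest change of the 10 genes for compound 10 in stimulated cells, for stimulation in vehicle and for the difference between the states. It encodes a glycolipid-anchored receptor of the immunoglobulin family that binds HVEM (the product of Tnfrsf14), and lies at chr3:96798763-96829351 on the minus strand of GRCm38. Cd160 measured 8.65, 6.38 and 6.55 CPM in Comp10_PI, 55.5 and 35.3 CPM in DMSO_PI, 1.75 and 1.72 CPM in Comp10_US and 1.15 and 0.903 CPM in DMSO_US. Both stimulated vehicle libraries lay far above all others, and the stimulated compound 10 libraries lay between them and the unstimulated ones without overlap. In stimulated cells the mean under compound 10 was 15.8% of the vehicle mean (log2 fold change -2.66, SE 0.24, adjusted p = 3.43e-05), the 58th lowest of 14011 genes.

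Stimulation raised Cd160 in vehicle by 5.46 on the log2 scale (SE 0.33, adjusted p = 6.85e-07), which was the 78th highest change of all genes tested. Its summed counts were 1652 in the stimulated vehicle libraries and 30 in the unstimulated ones, a ratio of 45.2 (exact 95% interval from counting, 31.5 to 67.1). Under compound 10 the gene still rose, by 2.05 (SE 0.29, adjusted p = 0.000331), with 281 counts stimulated and 58 unstimulated and a ratio of 4.13 (3.10 to 5.57). Such intervals cover counting error only. In unstimulated cells the compound 10 libraries were the higher ones, without overlap, but at 27 and 31 counts against 16 and 14 the difference of 0.76 (SE 0.35) did not pass (adjusted p = 0.231).

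The difference between the compound's effects on Cd160 in stimulated and in unstimulated cells was -3.41 (SE 0.43, adjusted p = 0.00313), the 60th lowest of all genes. In stimulated cells all compound 10 libraries lay below both vehicle libraries, so the same order within library numbers 1 and 2 adds nothing. Cd160 kept its direction and its call in all 19 alternatives for each of these 4 comparisons, with the effect in stimulated cells ranging over -2.95 to -2.29. Transcript Cd160-201 took 86.8%, 90.8% and 91.1% of the gene's counts in Comp10_PI and 96.4% and 94.9% in DMSO_PI. The 5′ end of the gene at start 1 overlaps Pdzk1 on the opposite strand, and the sources used here do not say whether counting used strand.

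Cd200 encodes a membrane glycoprotein whose receptor, CD200R, is known to dampen myeloid cells. It lies at chr16:45382135-45409053 on the minus strand. The gene measured 32.7, 24.2 and 22.5 CPM in Comp10_PI, 61.1 and 42.8 CPM in DMSO_PI, 6.56 and 5.76 CPM in Comp10_US and 7.49 and 5.03 CPM in DMSO_US. Stimulated libraries lay above unstimulated ones in both treatments, and the stimulated compound 10 libraries lay below both stimulated vehicle libraries.

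Stimulation raised Cd200 by 3.05 (SE 0.28, adjusted p = 1.18e-05) in vehicle and by 2.10 (SE 0.26, adjusted p = 0.000148) under compound 10. Compound 10 lowered it in stimulated cells by a log2 fold change of -0.97 (SE 0.23, adjusted p = 0.00925), to 51.0% of the vehicle mean. This call was lost without library 1 of DMSO_PI, at -0.68 (adjusted p = 0.122), with effective lengths as an offset (adjusted p = 0.116) and with limma on log2(TPM + 1) (adjusted p = 0.246). In unstimulated cells the difference was -0.02 (SE 0.28), with an interval of 2 SE to either side of -0.59 to 0.54. The difference between the states was -0.95 (SE 0.37, adjusted p = 0.244) and did not pass.

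Tigit moved with the compound and not detectably with stimulation. It encodes a receptor for CD155 (Pvr) and related nectins, and lies at chr16:43648867-43664146 on the minus strand. Tigit measured 13.1, 13.5 and 10.8 CPM in Comp10_PI, 29.9 and 21.3 CPM in DMSO_PI, 13.1 and 10.7 CPM in Comp10_US and 37.1 and 29.6 CPM in DMSO_US. All 5 compound 10 libraries lay below all 4 vehicle libraries, whether stimulated or not.

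The log2 fold change of Tigit with compound 10 was -1.04 (SE 0.21, adjusted p = 0.00392) in stimulated cells and -1.49 (SE 0.24, adjusted p = 0.00351) in unstimulated cells. Those levels were 48.6% and 35.6% of the vehicle means. The difference between these effects was 0.45 (SE 0.32, adjusted p = 0.579), with an interval of 2 SE to either side of -0.18 to 1.08. Stimulation changed Tigit by -0.38 (SE 0.23, adjusted p = 0.251) in vehicle and by 0.07 (SE 0.22, adjusted p = 0.858) under compound 10. The call in stimulated cells was lost without library 1 of DMSO_PI (adjusted p = 0.0555) and that in unstimulated cells without library 2 of Comp10_US (adjusted p = 0.0521). With limma on log2(TPM + 1) the adjusted p was 0.0534 in stimulated and 0.055 in unstimulated cells, and the direction was kept in all 19 alternatives.

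Pdcd1 encodes PD-1, the receptor for PD-L1 and PD-L2, and lies at chr1:94038305-94052553 on the minus strand. It measured 40.8, 32.8 and 28.5 CPM in Comp10_PI, 49.7 and 34.4 CPM in DMSO_PI, 12.4 and 10.5 CPM in Comp10_US and 31.98 and 17.4 CPM in DMSO_US. The stimulated groups overlapped, while both unstimulated compound 10 libraries lay below both unstimulated vehicle libraries. In all 4 groups library 1 was above library 2.

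Compound 10 lowered Pdcd1 in unstimulated cells by a log2 fold change of -1.11 (SE 0.30, adjusted p = 0.0453), to 46.4% of the vehicle mean. That call passed in 12 of 19 alternatives and was lost without library 1 of DMSO_US, at -0.61 (adjusted p = 0.335). In stimulated cells the difference was -0.31 (SE 0.26, adjusted p = 0.46). With stimulation the gene rose under compound 10 by 1.57 (SE 0.28, adjusted p = 0.0021), and its difference of 0.77 (SE 0.29, adjusted p = 0.0687) in vehicle did not pass, though it did in 4 of 19 alternatives. Among these was the edgeR fit with library number as a block (0.79, adjusted p = 0.0201). The rise under compound 10 missed the threshold with limma on log2(TPM + 1) alone (adjusted p = 0.0624). The interaction, 0.80 (SE 0.40, adjusted p = 0.392), did not pass either, so the effects of stimulation are not shown to differ.

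Ctla4 encodes a receptor that competes with CD28 for the ligands CD80 and CD86, and lies at chr1:60887000-60915832 on the plus strand. Its levels were 171.6, 96.99 and 107.6 CPM in Comp10_PI, 110.7 and 120.1 CPM in DMSO_PI, 32.7 and 22.6 CPM in Comp10_US and 23.6 and 25.2 CPM in DMSO_US. Every stimulated library was above every unstimulated one, and compound 10 and vehicle overlapped in both states.

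Stimulation raised Ctla4 by 2.24 (SE 0.28, adjusted p = 0.000119) in vehicle and by 2.18 (SE 0.26, adjusted p = 0.000131) under compound 10, and both calls held in all 19 alternatives. The compound's effect was 0.12 (SE 0.24, adjusted p = 0.779) in stimulated cells, with an interval of 2 SE to either side of -0.36 to 0.60. Between the rises in the treatments the difference was -0.06 (SE 0.36), with an interval of -0.78 to 0.67. As fitted, the rise under compound 10 was 4.54-fold for Ctla4 and 4.13-fold for Cd160, and in vehicle it was 4.73-fold for Ctla4 and 44.0-fold for Cd160. Transcript Ctla4-201 took 99.9% of the Ctla4 counts.

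Havcr2, which encodes the mucin-domain receptor TIM-3, had the lowest TPM of the 10 genes in every group and lies at chr11:46454935-46481255 on the plus strand. It had 13, 14 and 21 counts in Comp10_PI, 36 and 12 in DMSO_PI, 4 and 3 in Comp10_US and 0 and 3 in DMSO_US. Stimulated libraries held more counts than unstimulated ones, without overlap in CPM, and the treatments overlapped. After scaling between libraries, the ratio of summed counts with stimulation was 13.1 in vehicle (48 against 3 counts) and 5.84 under compound 10 (48 against 7 counts).

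Because the filter kept Havcr2 through the libraries in which it is high, its count ratios and its calls with stimulation (adjusted p = 0.0133 in vehicle and 0.0397 under compound 10) are given as a description only. Its 2 transcripts, Havcr2-201 and Havcr2-202, split the counts as all or none in 6 of the 8 libraries that had any, so no reading of transcript use is made.

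Lag3 encodes a receptor that binds MHC class II molecules, and lies at chr6:124904361-124911705 on the minus strand. It passed in no comparison, though with no filter on low counts it did for compound 10 in stimulated cells (adjusted p = 0.039) and for stimulation in vehicle (adjusted p = 0.0296). Its levels were 10.0, 7.36 and 3.93 CPM in Comp10_PI, 18.9 and 5.58 CPM in DMSO_PI, 5.97 and 3.49 CPM in Comp10_US and 10.2 and 3.36 CPM in DMSO_US. Library 1 was above library 2 in all 4 groups, and the groups overlapped in every comparison. The effect of compound 10 in stimulated cells was -0.78 (SE 0.65, adjusted p = 0.458), an interval of -2.08 to 0.51, and without library 1 of DMSO_PI its sign turned, to 0.36.

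Entpd1 encodes CD39, which hydrolyses extracellular ATP and ADP, and lies at chr19:40612366-40741602 on the plus strand. It held 25, 31 and 7 counts in Comp10_PI, 30 and 27 in DMSO_PI, 11 and 18 in Comp10_US and 18 and 15 in DMSO_US. Compound 10 and vehicle overlapped in both states, and no comparison passed. At these counts the SE was 0.50 for compound 10 in stimulated cells and 0.58 in unstimulated cells. Its counts were spread over several transcripts, the 3 leading ones with 48.1%, 30.6% and 12.7%, and 3 other annotated genes lie within its span.

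Tox and Tox2 encode related DNA-binding proteins of the high mobility group box family, and Tox is known for its part in CD4+ T cell development and in CD8 T cell exhaustion. Tox measured 59.1, 60.8 and 52.6 CPM in Comp10_PI, 50.03 and 56.1 CPM in DMSO_PI, 51.8 and 41.8 CPM in Comp10_US and 35.1 and 31.0 CPM in DMSO_US. The unstimulated vehicle libraries were the lowest, and the other 3 groups were closer together. Between its highest and its lowest library the ratio was the smallest of the 10 genes.

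Stimulation in vehicle raised Tox by 0.68 (SE 0.18, adjusted p = 0.0156), or 1.60-fold. This call held in 15 of 19 alternatives. It was lost without library 2 of DMSO_PI (0.60), without library 2 of DMSO_US (0.60) and without both of these (0.52). With limma on log2(TPM + 1) it was lost as well (adjusted p = 0.287). Under compound 10 the difference with stimulation was 0.30 (SE 0.17, adjusted p = 0.242). The compound's own effect was 0.12 (SE 0.17, adjusted p = 0.679) in stimulated cells, with an interval of -0.22 to 0.45, and 0.50 (SE 0.18, adjusted p = 0.123) in unstimulated cells, where both compound 10 libraries were above both vehicle libraries. The Tox gene overlaps the antisense gene Gm11802.

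Tox2 measured 10.9, 6.51 and 6.98 CPM in Comp10_PI, 9.45 and 4.68 CPM in DMSO_PI, 7.01 and 5.48 CPM in Comp10_US and 5.91 and 4.0005 CPM in DMSO_US. Its compound 10 and vehicle ranges overlapped in both states, as did its stimulated and unstimulated ranges, and no comparison passed. The related gene Tox4, measured at 169.5 ± 15.1 CPM in Comp10_PI, 188.5 ± 6.96 CPM in DMSO_PI, 105.3 ± 21.3 CPM in Comp10_US and 102.5 ± 16.6 CPM in DMSO_US (SD), rose with stimulation in vehicle (0.88, SE 0.20, adjusted p = 0.00675) and under compound 10 (0.69, SE 0.19, adjusted p = 0.0209). Compound 10 did not change Tox4 past the threshold in either state.

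**Figure D3:**
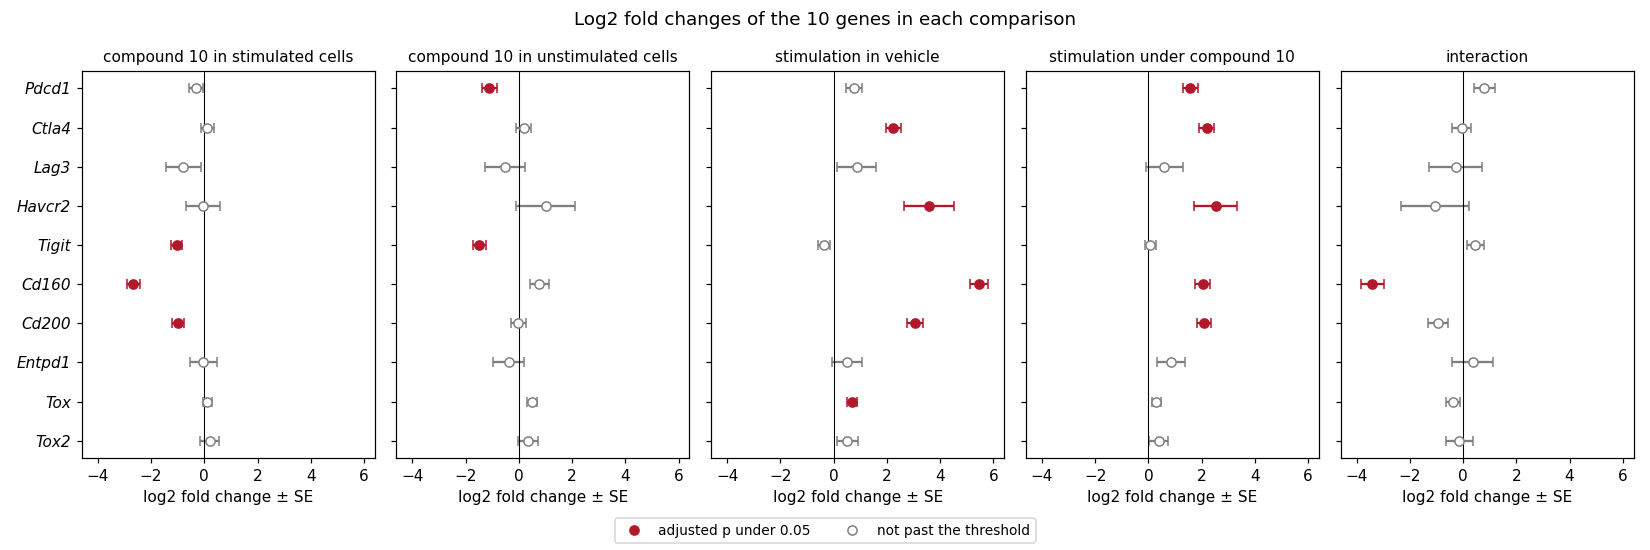
Log2 fold changes with standard errors (x axes) of the 10 genes (rows) in 5 comparisons (panels), each as the first-named condition over the other. Filled points passed an adjusted p under 0.05. Cd160 lies far left for compound 10 in stimulated cells (-2.66) and for the interaction (-3.41), and far right for stimulation in vehicle (5.46).

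Compared per length, as TPM (transcript levels relative to the library's sum), the order of levels differed between the groups. In Comp10_PI the order was Ctla4 (55.7 TPM), Cd200 (24.6), Pdcd1 (15.3), Tox (14.3), Tigit (12.5), Cd160 (5.59), Lag3 (3.09), Tox2 (2.43), Entpd1 (0.780) and Havcr2 (0.402). In DMSO_PI it was Ctla4 (53.6 TPM), Cd200 (41.5), Cd160 (38.9), Tigit (27.1), Pdcd1 (19.7), Tox (13.8), Lag3 (5.55), Tox2 (2.09), Entpd1 (1.07) and Havcr2 (0.422). Cd160 had rank 3 in DMSO_PI, with a range that overlapped those of Cd200 and Tigit beside it, and rank 6 in Comp10_PI, with a range that overlapped neither neighbour. The place of Cd200 depends on how its counts are split between transcripts. Transcript Cd200-202 took 82.4% of the gene's counts on average over libraries but 32.3% of its TPM. By itself Cd200-202 was at 9.71, 7.21 and 6.13 TPM in Comp10_PI and 20.9 and 13.5 TPM in DMSO_PI.

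In Comp10_US the highest were Ctla4 (16.1 TPM), Tigit (15.5) and Tox (14.9), which overlapped in turn, ahead of Cd200 (9.62) and Pdcd1 (6.63). In DMSO_US Tigit was highest at 45.3 TPM, above all other members without overlap, ahead of Pdcd1 (15.2), Ctla4 (14.1), Tox (9.76) and Cd200 (8.15), each of which overlapped the next. Cd160 had rank 8 in both unstimulated groups, at 1.70 TPM in Comp10_US and 1.04 TPM in DMSO_US.

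Some members shared their profile with other genes. The likeness was the root mean square difference of centred log2 CPM over the 9 libraries, searched over 6444 protein-coding genes and given with no test. Nearest to Pdcd1 were Tnfrsf4 (0.27), Sdc4 (0.28) and Zfp52 (0.31), to Ctla4 Dot1l (0.22), Gem (0.24) and F2r (0.26), and to Tigit Rtf2 (0.16), Mcm5 (0.17) and Zfp207 (0.20). Nearest to Cd200 were Klrc1 (0.24), Sco2 (0.25) and Grwd1 (0.27), and to Tox Cetn2 (0.09), Usp15 (0.09) and Dnajc18 (0.10), where Tox itself varied by 0.32. For Cd160, which fell below the abundance rule and was added after its values were seen, they were Il2ra (0.45), Xcl1 (0.47) and Plscr1 (0.53), against a variation of 1.94 in Cd160 itself.

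Ligands were described from a list. Of 14 ligands or binding partners listed, 11 were tested, and compound 10 in stimulated cells gave 4 higher and 0 lower, against 11.7% higher and 11.4% lower over all genes. They were Pdcd1lg2 (PD-L2), at 31.5 ± 2.40 CPM in Comp10_PI and 14.5 ± 1.11 CPM in DMSO_PI, a change of 1.12 (SE 0.19), Pvr, the ligand of Tigit, at 138.3 ± 14.6 CPM in Comp10_PI and 69.2 ± 8.84 CPM in DMSO_PI (1.00, SE 0.17), Lgals3 (1.37, SE 0.28) and Nectin3 (1.29, SE 0.40). Tigit and its ligand gene Pvr moved in opposite directions with compound 10 in stimulated cells. The same was not seen in unstimulated cells, where Tigit was lower but Pvr did not pass (0.20, SE 0.18, adjusted p = 0.557). In unstimulated cells 2 of the 11, Lgals3 and Nectin3, were higher and 0 lower, against 4.45% higher and 2.91% lower over all genes. Tnfrsf14, the partner of Cd160, was low, at 1.76 ± 1.23 CPM in Comp10_PI and 1.92 ± 0.503 CPM in DMSO_PI.

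Other inhibitory receptors split. Of 13 tested, 4 were higher and 3 lower with compound 10 in stimulated cells (11.7% and 11.4% over all genes), with a median of 0.43 against 0.00 over all genes. Vsir, which encodes VISTA, was at 269.6 ± 67.4 CPM in Comp10_PI and 684.9 ± 121.3 CPM in DMSO_PI (-1.35, SE 0.22), and Btla, a further receptor for HVEM, was at 30.7 ± 7.36 CPM in Comp10_PI and 77.1 ± 23.6 CPM in DMSO_PI (-1.33, SE 0.27). Klrc1 was the other lower gene (-0.92, SE 0.25), and Klrg1, Cd101, Cd5 and Cd96 were the higher ones. Like Cd160, Btla and Vsir had a negative interaction past the threshold, -2.51 (SE 0.45, adjusted p = 0.0259) and -2.08 (SE 0.34, adjusted p = 0.0157).

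Among 11 costimulatory counterparts, 2 were higher, near the 11.7% over all genes, and 4 lower (11.4% over all genes) with compound 10 in stimulated cells. Cd28 (0.88, SE 0.19) and Slamf6 (1.42, SE 0.18) were higher, while Tnfsf14, which encodes the HVEM ligand LIGHT (-2.14, SE 0.24), Tnfrsf9 (-1.20, SE 0.18), Cd2 (-0.84, SE 0.17) and Icos (-0.75, SE 0.16) were lower. Stimulation in vehicle raised 9 of the 11, against 14.4% of all genes called higher. Among 18 exhaustion-associated transcription factors, 13 rose and 2 fell with stimulation in vehicle, against 14.4% higher and 13.8% lower over all genes. Compound 10 in stimulated cells gave 3 higher and 4 lower, against 11.7% and 11.4%. Tcf7 (1.92, SE 0.30), Id3 (2.12, SE 0.20) and Nfatc2 (1.17, SE 0.36) were higher, and Ikzf2 (-2.25, SE 0.18), Nr4a3 (-0.88, SE 0.27), Nfatc1 (-0.81, SE 0.24) and Batf (-0.77, SE 0.18) were lower. Of 12 signalling genes downstream of the receptors 2 were higher and 0 lower, Ptpn6 (1.02, SE 0.22) and Sh2d1a (0.64, SE 0.18), which is near the share over all genes and no result about the list. Of 8 adenosine pathway genes 0 were higher and 2 lower, Ada (-1.83, SE 0.28) and Adk (-1.22, SE 0.18), against the same 11.7% and 11.4%. Over the 10 members the median was -0.18 in stimulated cells and 0.08 in unstimulated cells, against 0.00 and -0.01 over all genes.

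**Figure D4:**
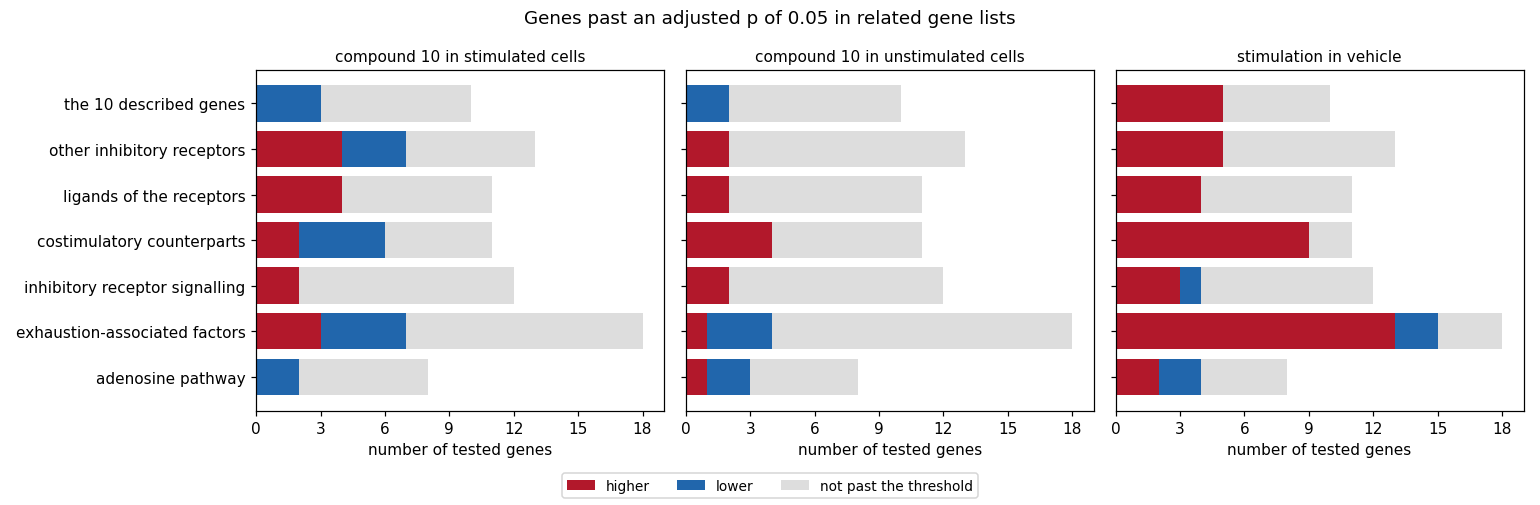
Number of tested genes (x axes) called higher, called lower or not past an adjusted p of 0.05 in the 10 described genes and 6 related lists (rows), for compound 10 in stimulated cells, compound 10 in unstimulated cells and stimulation in vehicle (panels). The 10 genes have 3 lower and 0 higher in the first panel, and the ligands 4 higher and 0 lower.

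Markers of T cell subsets moved beside these genes. Regulatory T cells are known to express Ctla4 and Tigit at high levels. The 4 regulatory T cell markers summed to 51.5 to 71.8 CPM in Comp10_PI, 266.1 to 274.0 CPM in DMSO_PI, 33.4 to 37.2 CPM in Comp10_US and 53.6 to 60.3 CPM in DMSO_US, with 0 markers at 0 counts. Most of the DMSO_PI sum was Il2ra, at 192.4 and 185.0 CPM there against 6.63 and 9.49 CPM in DMSO_US. Foxp3 was at 17.1 and 20.1 CPM in DMSO_PI and at 9.07 and 20.3 CPM in DMSO_US. Of the 4 markers, 3 (Il2ra, Ikzf2 and Foxp3) were lower and 0 higher with compound 10 in stimulated cells. The shares over all genes were 11.4% lower and 11.7% higher. For Foxp3 the levels were 6.73 ± 1.85 CPM in Comp10_PI and 18.6 ± 2.13 CPM in DMSO_PI (-1.47, SE 0.32, adjusted p = 0.00638). The fourth, Ikzf4, did not pass, at 1.12, 0.586 and 1.48 CPM in Comp10_PI and 1.097 and 1.02 CPM in DMSO_PI. In unstimulated cells 0 of the 4 were called, against 7.36% of all genes. Ikzf2 stands in this list and among the exhaustion-associated factors.

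Of the natural killer cell markers, 3 of 4 tested (Klrb1c, Gzma and Prf1) were higher and 0 lower under compound 10 in stimulated cells, against 11.7% and 11.4% over all genes. The fourth, Eomes, was at 5.81 ± 2.69 CPM in Comp10_PI and 12.3 ± 2.87 CPM in DMSO_PI (-1.09, SE 0.39, adjusted p = 0.0636). Klrb1c held 46, 52 and 50 counts in Comp10_PI and 4 and 6 in DMSO_PI. It needed its compound 10 libraries to pass the filter, so its call is a description only. In unstimulated cells 1 of the 4 was called higher and 0 lower, against 4.45% and 2.91% over all genes. Gzma was at 4.22 and 5.70 CPM in Comp10_US and 1.37 and 1.23 CPM in DMSO_US. Follicular helper markers, of a subset known for high Pdcd1, Cd200 and Tigit, had 3 of 4 higher (Cxcr5, Bcl6 and Sh2d1a) and 1 lower (Il21) under compound 10 in stimulated cells. Among the tested markers of CD8 T cells, B cells and myeloid cells, 0 were called for compound 10 in either state. Over all genes 23.1% were called in stimulated and 7.36% in unstimulated cells. The part of these markers in the changes of the 10 genes was not tested.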

How the data were processed

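RNA of 9 libraries was extracted with Qiagen kits and made into SMART-seq (Clontech) libraries, per the labels' protocols. The submitters' processing notes name cutadapt, kallisto and mm10, and the sources used here give no version or strand setting. The deposited tables give estimated counts per transcript, not normalized between libraries, and TPM, made by kallisto from the same counts and effective lengths, per the file headers.

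Of 109617 transcripts, 108214 matched GENCODE M21 (GRCm38) without the version of the identifier. Between 0.542% and 0.829% of each library's counts lay on unmatched ones. Sums per gene of the rest were rounded to whole numbers. Genes were filtered with filterByExpr by group, scaled by TMM and entered, all 9 libraries together, into 1 model with a coefficient per group (edgeR 4.0.16, R 4.3.3). Contrasts were 2-sided quasi-likelihood tests (glmQLFTest) after a robust glmQLFit. The coefficient of variation common to all genes was 0.244. The SE was taken as the size of the log2 change over the root of the F statistic.

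All members were named. From each list at most 4 called genes with the smallest p were named per comparison, with the ligands, Tox4 and the marker genes Cd4, Cd3e and Trac. Other genes of a count of 5 or fewer were named after their values were seen. The members and lists were chosen with earlier results of these data known.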

Additional observations from a re-analysis of the deposited data

Results flagged for a closer look

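For Cd160 the effect of compound 10 differed between the states by the test of the difference itself. The log2 fold change was -2.66 (SE 0.24) in stimulated cells and 0.76 (SE 0.35) in unstimulated cells, a difference of -3.41 (SE 0.43, adjusted p = 0.00313 by edgeR's quasi-likelihood test). All 3 stimulated compound 10 libraries were below both stimulated vehicle libraries, and both unstimulated compound 10 libraries were above both unstimulated vehicle libraries, at 14 to 31 counts each. The difference in unstimulated cells did not pass by itself (adjusted p = 0.231), so a rise there is not shown. The cause was not tested.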

How the results depend on the processing

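Each result was recomputed under 19 alternatives (18 for Havcr2, which the stricter filter removes), of which 9 left out a single library. Where this leaves a group with 1 library, that library is assumed to vary like the other groups. The totals of called changes below include those of Havcr2 with stimulation. Of the called changes, 146 of 158 values under other settings and 128 of 144 with a library left out stayed past the threshold in the same direction, and no called change reversed. The count of members called for compound 10 in stimulated cells was 1 with limma on log2(TPM + 1) and 1 to 3 with a library left out (1 without library 1 of DMSO_PI). In unstimulated cells it was 1 with effective lengths as an offset, 0 with limma and 0 to 2 with a library left out. For stimulation under compound 10 it was 3 with limma and 4 to 5 with a library left out.

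Uncalled changes reversed as follows, on the log2 scale. For compound 10 in stimulated cells, Havcr2 was 0.038 with upper-quartile scaling, Entpd1 was 0.057 with upper-quartile scaling, 0.34 with the replicate block and 0.0011 without ribosomal RNA genes, and Tox2 was -0.22 without the vehicle libraries numbered 2. In unstimulated cells Cd200 was 0.011 with no filter, 0.00086 with the replicate block, 0.30 with effective lengths, 0.33 with limma and 0.013 without ribosomal RNA genes. For stimulation under compound 10, limma gave -0.31 for Tigit, -0.11 for Entpd1 and -0.063 for Tox. For the interaction, Ctla4 was 0.048 with upper-quartile scaling and 0.024 with the block, Lag3 was 0.11 with the block, and Entpd1 was -0.34 with effective lengths and -0.23 with limma.

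With a library left out, values for compound 10 in stimulated cells ranged over -0.17 to 0.25 for Ctla4, -1.41 to 0.36 for Lag3, -0.59 to 0.80 for Havcr2, -0.30 to 0.34 for Entpd1 and -0.22 to 0.80 for Tox2. In unstimulated cells the ranges were -0.11 to 0.42 for Ctla4, -1.10 to 0.48 for Lag3 and -0.28 to 0.28 for Cd200. Stimulation in vehicle gave -0.27 to 1.86 for Lag3 and -0.083 to 0.94 for Tox2, and stimulation under compound 10 gave -0.069 to 0.23 for Tigit. The interaction gave -0.35 to 0.24 for Ctla4, -1.27 to 0.87 for Lag3 and -0.56 to 0.47 for Tox2. These causes were not tested.

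Over 6688 genes, deviations of same-numbered libraries correlated at -0.006 (Comp10_PI and DMSO_PI) and -0.124 (Comp10_US and DMSO_US) between treatments. Between the states of a treatment they correlated at 0.525 (Comp10_PI and Comp10_US) and 0.588 (DMSO_PI and DMSO_US). The labels do not say what a number marks, and the main fit did not use it. Whether same-numbered libraries of a treatment shared a source was not tested. With the number as a block, library 3 of Comp10_PI has its own level and carries no weight. Then 6 members, Havcr2 among them, were called for stimulation in vehicle (5 without the block). Under compound 10, 4 were called (5 without the block), and counts in the other 3 comparisons were equal. The block changed the call of Pdcd1 for stimulation in vehicle (0.79, adjusted p = 0.0201) and of Havcr2 under compound 10 (adjusted p = 0.118). Over all genes the median shifted to -0.17 for stimulation in vehicle and -0.21 under compound 10 with limma on log2(TPM + 1), and to 0.12 for the interaction with upper-quartile scaling. Calls over all genes in the interaction, 144, were 454 with DESeq2, 512 with no filter, 43 with the block, 83 with effective lengths, 22 with limma, 13 without vehicle libraries numbered 2 and 29 to 264 with a library left out. For compound 10 in stimulated cells, 3234 calls became 1195 with limma, 1827 without vehicle libraries numbered 2 and 1973 without library 2 of DMSO_PI. In unstimulated cells, 1031 became 1569 with no filter, 231 with limma, 295 without vehicle libraries numbered 2, 174 and 278 without library 1 or 2 of Comp10_US and 263 and 269 without library 1 or 2 of DMSO_US. For stimulation in vehicle, 3940 became 1597 without vehicle libraries numbered 2 and 2594 and 2425 without library 1 or 2 of DMSO_US, and under compound 10, 3052 became 1627 and 1506 without library 1 or 2 of Comp10_US.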
